A study of Mus musculus with 15 samples.

Results

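A group of 10 carriers, of 23420 gene symbols counted, that move amino acids and small peptides across the gut epithelium was followed in mouse ileal organoids treated with bile acid mixtures. They are Slc6a14, Slc6a19, Slc6a20a, Slc7a7, Slc7a8, Slc7a9, Slc3a1, Slc1a1, Slc15a1 and Slc36a1. All 10 passed the filter on low counts, as did 13159 symbols in all. The set was named by function, but Slc6a14 was chosen by its counts against the untreated organoids, where it had been seen to fall with every bile acid mixture, so that comparison is given below as a description without a test. The organoids were grown from ileal crypts of C57BL/6 mice, split on day 10 and used on day 14 (passage 2), after pipetting had opened them so that the lumen met the medium. For 24 h they received DMEM with 0.2% BSA and, in 4 of the 5 groups, a bile acid pool designed after the composition of a mouse or a human and holding a low or a high share of 12α-hydroxylated bile acids. M90 was the mouse-like pool with 90% of such acids, M10 the mouse-like pool with 10%, H90 the human-like pool with 90% and H10 the human-like pool with 10%. Vehicle organoids had the same medium with vehicle in place of bile acids. Each group had 3 libraries, a, b and c. The labels do not say whether these came from separate mice or cultures, so p-values measure the spread between these libraries, which may be technical. The bile acids in each pool, their concentrations and the age and sex of the mice were not given in the sources used here. Organoids of this kind are grown from epithelium without the rest of the gut wall, and the results are RNA levels, not protein or transport.

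Absorptive cells of the small intestine take up the products of protein digestion across the brush border and pass amino acids on across the basolateral membrane. Sodium-driven carriers of the SLC6 family, the glutamate carrier and proton-driven carriers work at the brush border, as does an exchanger built of a heavy chain (Slc3a1) and a light chain (Slc7a9). A second pair of exchangers, built of Slc7a7 or Slc7a8 with the heavy chain Slc3a2, works on the basolateral side. Peptides that escape brush border peptidases enter whole through Slc15a1.

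Total counts ran from 11245807 to 28989526 per library. The epithelial markers Epcam, Cdh1, Krt8, Krt18, Krt19, Cdx1 and Cdx2 together reached 10829 to 14500 CPM (reads of a gene per 1e+06 TMM-scaled reads) in every library, against 5.47 to 9.80 CPM for 4 immune markers, of which Cd3e was at 0 in M90 and Vehicle. The libraries fell into 2 sets that no label names. Mup20, a gene of liver and urinary proteins, was at 0.356 to 0.583 CPM (scaled to plain totals) in the M90, M10, H90 b and H90 c libraries, against 23.0 to 35.9 CPM in H90 a and the H10 and Vehicle libraries. Col1a1, a collagen gene of fibroblasts, split them the same way, at 3.74 to 8.63 CPM (plain totals) in the M90, M10, H90 b and H90 c libraries, against 0 to 0.107 CPM in H90 a and the H10 and Vehicle libraries. The 5 other fibroblast markers averaged at most 0.277 CPM in every group. H10 against Vehicle and M90 against M10 were therefore compared within 1 set, and the other comparisons ran across sets. A term for the set rests on H90 a against H90 b and c alone, and its values are given below wherever they ended a call of a carrier. Calls and counts of the other named genes, the gene lists and the markers are given without that term, so whether they hold with it is not shown. H90 a also stood apart in Rn45s, the ribosomal RNA precursor, at 14142.5 CPM, against 1739 to 3215 CPM in the other 14 libraries (plain totals).

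The promoters of 5 carriers are shown. They are those of the gene that fell furthest against Vehicle (Slc6a14), the gene that rose most in M10 (Slc15a1) and the 2 chains of 1 exchanger (Slc3a1 and Slc7a9). The last is that of Slc1a1, the only carrier among the 9 tested against Vehicle that fell in M10. Each is the RefSeq window of the GRCm38.p6 build from 250 bases before to 50 bases after a transcript start, written 5′ to 3′ on the gene's strand. Capitals mark matches, on either strand, to 4 short motifs. The core bound by GATA factors was searched as AGATAA. The core bound by HNF4 was searched as CAAAGTCCA, that of the CDX factors as TTTATNG and the box near many starts, the TATA box, as TATAAA. The lines give Slc6a14 at chrX:21714650-21714949, plus strand, Slc15a1 at chr14:121505205-121505504, minus strand, Slc3a1 at chr17:85028097-85028396, plus strand, Slc7a9 (the first of its 2 windows) at chr7:35448842-35449141, plus strand, and Slc1a1 at chr19:28834885-28835184, plus strand.
Slc6a14: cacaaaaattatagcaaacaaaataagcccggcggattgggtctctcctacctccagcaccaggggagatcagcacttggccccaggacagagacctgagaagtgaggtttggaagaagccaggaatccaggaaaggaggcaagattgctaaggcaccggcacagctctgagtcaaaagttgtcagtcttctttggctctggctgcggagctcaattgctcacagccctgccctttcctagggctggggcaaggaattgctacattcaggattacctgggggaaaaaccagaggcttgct
Slc15a1: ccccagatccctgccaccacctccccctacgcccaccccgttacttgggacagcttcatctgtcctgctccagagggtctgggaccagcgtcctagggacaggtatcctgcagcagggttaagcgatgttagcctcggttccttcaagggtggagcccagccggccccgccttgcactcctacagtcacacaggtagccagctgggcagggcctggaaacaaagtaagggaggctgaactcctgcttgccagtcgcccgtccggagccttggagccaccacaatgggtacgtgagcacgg
Slc3a1: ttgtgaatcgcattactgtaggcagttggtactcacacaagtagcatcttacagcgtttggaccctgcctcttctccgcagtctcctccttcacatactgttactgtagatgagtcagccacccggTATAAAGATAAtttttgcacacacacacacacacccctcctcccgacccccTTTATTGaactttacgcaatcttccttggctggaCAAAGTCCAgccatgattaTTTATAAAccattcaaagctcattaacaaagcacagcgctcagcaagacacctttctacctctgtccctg
Slc7a9: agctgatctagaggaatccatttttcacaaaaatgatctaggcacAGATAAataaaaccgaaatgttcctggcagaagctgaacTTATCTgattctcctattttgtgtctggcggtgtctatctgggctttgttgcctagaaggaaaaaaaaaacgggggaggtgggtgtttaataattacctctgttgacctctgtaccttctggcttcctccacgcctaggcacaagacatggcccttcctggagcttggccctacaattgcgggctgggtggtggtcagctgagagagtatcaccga
Slc1a1: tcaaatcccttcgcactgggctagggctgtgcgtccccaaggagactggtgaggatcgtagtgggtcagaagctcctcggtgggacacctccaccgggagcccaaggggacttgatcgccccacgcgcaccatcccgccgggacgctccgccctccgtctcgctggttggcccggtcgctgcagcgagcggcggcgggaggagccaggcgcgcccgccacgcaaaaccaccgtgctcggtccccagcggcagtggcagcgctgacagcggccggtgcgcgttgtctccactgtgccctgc
The Slc3a1 window held an HNF4 core 39 bases before the start, a match found in 0.475% of 32851 RefSeq promoter windows. It also held a CDX core 73 bases before the start (10.9% of windows), a GATA core 119 bases before it (11.2% of windows) and 3 TATA box matches (13.6% of windows), of which 1 overlaps the GATA core by a base and the other 2 overlap each other. The Slc7a9 window held 2 GATA cores. Among the 15 windows of the 10 carriers, a GATA core was also found in 2 overlapping windows of Slc7a7, as the same site in both. The letters TGATGNAA (CARE core, 3.97% of windows) were found in 2 windows of Slc7a7, which also overlap and share a site. None of the 5 motifs was found in the windows of Slc6a14, Slc15a1, Slc1a1, Slc6a20a, Slc6a19, Slc7a8 or Slc36a1. The windows differed in base composition. That of Slc1a1 was 70.3% G or C with 32 CG steps, and that of Slc6a14 was 52.7% G or C with 4, beside medians of 52.7% and 7 over all windows.

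Per length, the heavy chain Slc3a1 led in every group. In CPM per kb of exon, it stood at 132 ± 7.75 in M90, 211 ± 10.8 in M10, 103 ± 4.95 in H90 and 141 ± 7.55 in H10, against 121 ± 5.38 in Vehicle (SD, n = 3 in each). Its light chain Slc7a9 followed in Vehicle at 38.2 CPM per kb, then Slc7a7 at 31.5, Slc6a20a at 19.3, Slc15a1 at 14.8, Slc1a1 at 11.4, Slc7a8 at 8.13 and Slc36a1 at 7.37. Slc6a19 (5.80 CPM per kb) and Slc6a14 (5.57 CPM per kb) came last in Vehicle, with ranges that overlapped. The place of Slc1a1 and Slc6a20a in this order changed when the longest transcript was used in place of all exons. Summed over the 10 carriers, the level per length was 323 ± 5.17 CPM per kb in M90, 452 ± 11.02 in M10, 248 ± 12.8 in H90 and 319 ± 6.60 in H10, against 263 ± 5.10 in Vehicle (SD, n = 3 each). Slc6a14 made up 0.0386% of that sum in M90, 0.0531% in M10, 0.327% in H90 and 0.115% in H10, against 2.12% in Vehicle.

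**Figure D1:**
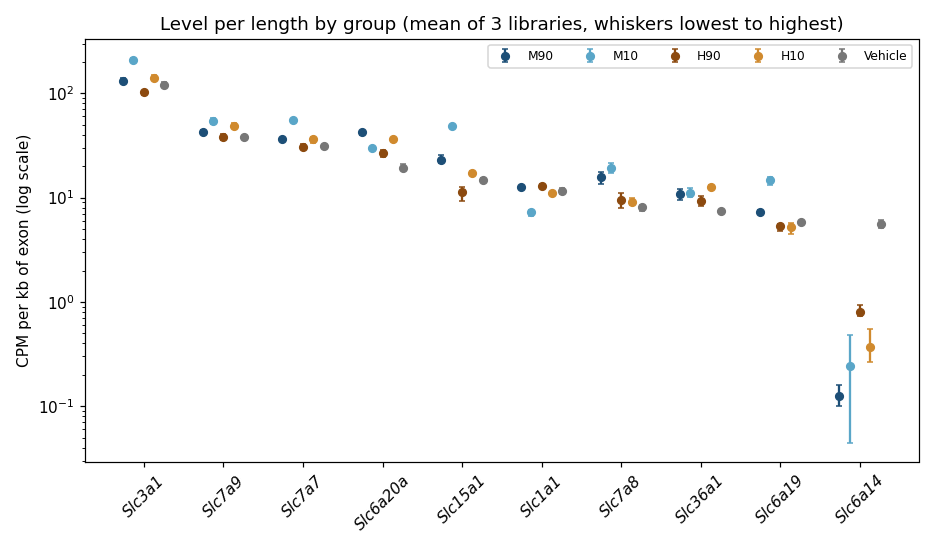
Level of the 10 carriers in CPM per kb of exon, on a log axis, in M90, M10, H90, H10 and Vehicle organoids (points are means of 3 libraries, whiskers run from the lowest to the highest library). Slc3a1 is highest in every group, and Slc6a14 in Vehicle lies beside Slc6a19 while its points in the 4 bile acid groups lie below all other carriers.

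Slc6a14, a sodium- and chloride-driven carrier of neutral and cationic amino acids at the apical membrane, was low in every bile acid group. It lies on chromosome X from base 21714896 to 21742355 of GRCm38, plus strand. The libraries held 0.553, 0.347 and 0.385 CPM in M90, 1.65, 0.683 and 0.153 CPM in M10, 2.51, 3.20 and 2.62 CPM in H90 and 0.916, 1.87 and 0.980 CPM in H10, against 17.7, 18.9 and 20.8 CPM in Vehicle. All 12 bile acid libraries lay below all 3 Vehicle libraries. These values rest on 8 to 11 reads in M90, 3 to 43 in M10, 31 to 64 in H90 and 17 to 36 in H10, against 304 to 553 in Vehicle. The fitted level was 44.6-fold lower than in Vehicle in M90, 21.9-fold lower in M10, 6.89-fold lower in H90 and 15.3-fold lower in H10, which correspond to log2 changes of -5.48, -4.45, -2.78 and -3.94. The M10 libraries differed most among themselves, and without M10 a the log2 change in M10 was -5.44. In bulk RNA, fewer cells of a type and less RNA per cell cannot be told apart. Beside the fall of Slc6a14, the summed level of 9 crypt stem and dividing cell markers (Lgr5, Olfm4, Ascl2, Smoc2, Axin2, Mki67, Top2a, Pcna and Mcm6) was 233 to 239 CPM in M90, 165 to 173 in M10, 618 to 709 in H90 and 236 to 252 in H10, against 1002 to 1023 in Vehicle. In Vehicle the largest parts of that sum were Mki67 (289 CPM) and Top2a (252 CPM). Of the 9 markers, 8 fell in M90, 9 in M10, 8 in H90 and 9 in H10, and 0 rose. Of all tested genes, 28.5% fell in M90, 33.3% in M10, 9.86% in H90 and 24.5% in H10. Ascl2 averaged 3.60 CPM in H90, against 2.75 CPM in Vehicle. None of the 9 was at 0 in a group, and their part in the result was not tested.

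Between the bile acid groups, Slc6a14 was higher in H90 than in H10 and lower in M90 than in H90. M90 against H90 gave a log2 change of -2.69 (SE 0.438, adjusted p = 8.87e-06) by edgeR's quasi-likelihood test, adjusted by Benjamini-Hochberg over all 13159 genes like every adjusted p below. H90 against H10 gave 1.15 (SE 0.377, adjusted p = 0.0161), with ranges that did not overlap. That call was lost without H10 a, H10 c or H90 b (adjusted p of 0.0663 to 0.0872), with DESeq2 (0.0664) and with the set term (0.149). M90 against M10 gave -1.02 (SE 0.487, adjusted p = 0.0934) with overlapping ranges. It passed without M10 c (adjusted p = 0.00391) and with no filter on low counts (0.0341), and without M10 a it was -0.040. M10 against H10 gave -0.52 (SE 0.416, adjusted p = 0.361), also with overlapping ranges. It passed without M10 a (adjusted p = 0.00803), and without M10 c it was -0.078. In order of the means, Vehicle stood above H90, H90 above H10, H10 above M10 and M10 above M90, and neither H10 and M10 nor M10 and M90 differed beyond their ranges. The effect of the 90% share was lower by 2.18 log2 units in the mouse-like than in the human-like pools (adjusted p = 0.0146). This difference was lost without M10 a, where it was -1.19 (adjusted p = 0.212), and without M90 b (0.0515). It was also lost with the set term (0.0644), with limma-voom (0.177, or 0.171 with a spread for each group) and with the 4 groups of the comparison alone (0.0986).

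**Figure D2:**
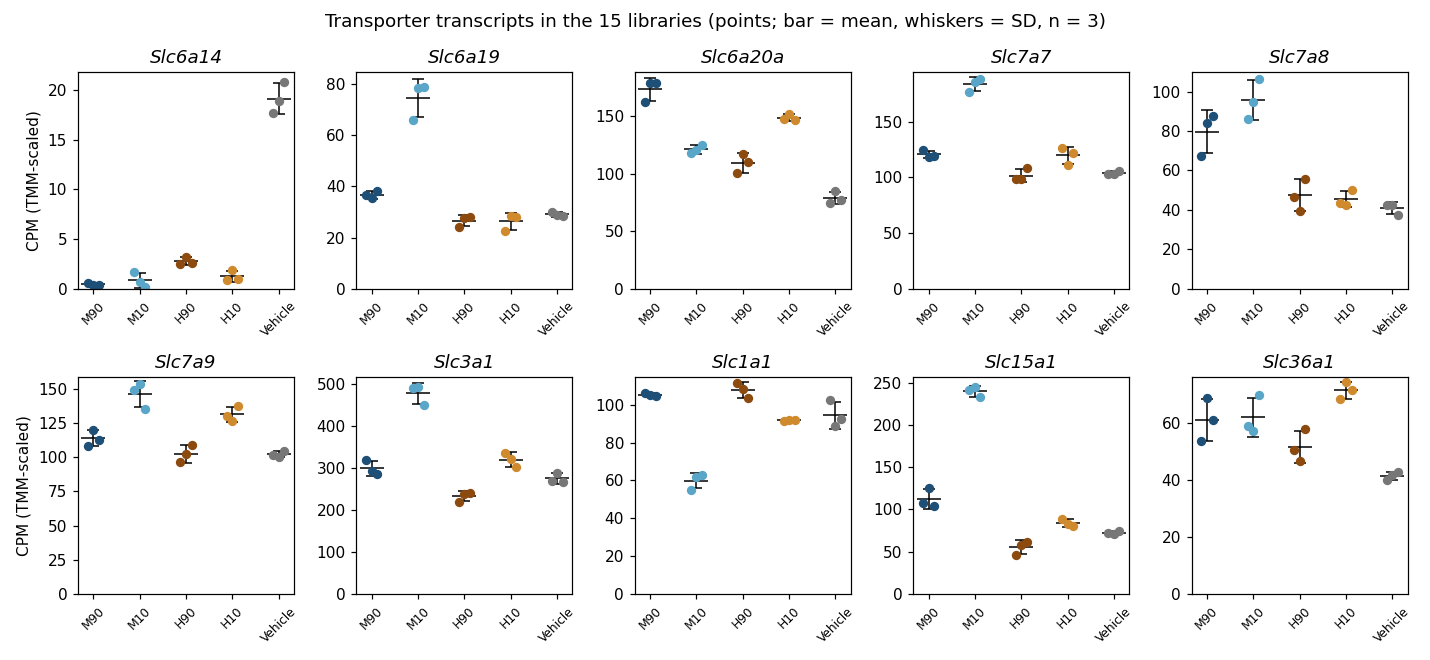
TMM-scaled CPM of each carrier in the 15 libraries (points), with the mean (bar) and SD (whiskers) of the 3 libraries of M90, M10, H90, H10 and Vehicle; every axis starts at 0. Slc6a14 is at 0.153 to 3.20 CPM in the bile acid groups and 17.7 to 20.8 CPM in Vehicle, and Slc15a1, Slc6a19, Slc7a7 and Slc3a1 are highest in M10.

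Slc6a19, the main sodium-driven carrier of neutral amino acids at the brush border, was raised in M10. It was counted at 36.5, 35.4 and 38.2 CPM in M90, 65.9, 78.3 and 79.0 CPM in M10, 24.0, 27.8 and 27.9 CPM in H90 and 22.5, 28.4 and 28.1 CPM in H10, against 30.1, 28.8 and 28.3 CPM in Vehicle. The M10 libraries lay far above all others and the M90 libraries above the rest, while H90 and H10 overlapped each other. M10 differed from Vehicle by 1.36 (SE 0.0952, adjusted p = 2.82e-15) and M90 from Vehicle by 0.34 (SE 0.0966, adjusted p = 0.00332) on the log2 scale. The M90 call was lost with the set term (0.12, adjusted p = 0.654) and with library size as the only scaling (adjusted p = 0.102). In the human-like pools the difference from Vehicle was -0.13 for H90 (95% interval -0.34 to 0.068) and -0.14 for H10 (95% interval -0.34 to 0.062), neither past the threshold, though H10 passed as lower with library size as the only scaling (adjusted p = 0.0231). Slc6a19 was lower in M90 than in M10, with a change of -1.02 (SE 0.0938, adjusted p = 2.25e-11). H90 against H10 gave 0.0034 (95% interval -0.20 to 0.21, adjusted p = 0.983). The difference between these effects was -1.02 (SE 0.137, adjusted p = 9.46e-07). Tmem27, the kidney partner of Slc6a19 known as collectrin, averaged 0.803 to 1.88 CPM in the 5 groups and passed no test against Vehicle.

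Slc6a20a, a sodium-driven carrier of proline and related imino acids, rose in all 4 bile acid groups. It was higher in M90 than in M10 but lower in H90 than in H10. Its libraries were at 162, 179 and 179 CPM in M90, 118, 121 and 125 CPM in M10, 101, 117 and 111 CPM in H90 and 147, 152 and 147 CPM in H10, against 74.5, 84.9 and 76.8 CPM in Vehicle. No 2 groups that neighbour each other in the order M90, H10, M10, H90 and Vehicle overlapped. Against Vehicle the log2 change was 1.14 (SE 0.0619, adjusted p = 4.11e-18) in M90, 0.62 (SE 0.0620, adjusted p = 3.89e-11) in M10, 0.47 (SE 0.0628, adjusted p = 3.11e-07) in H90 and 0.92 (SE 0.0620, adjusted p = 2.88e-15) in H10. M90 was above M10 by 0.52 (SE 0.0606, adjusted p = 7.10e-09), and H90 was below H10, with a change of -0.45 (SE 0.0617, adjusted p = 2.54e-07). Those comparisons share no library, and they differed by 0.96 (SE 0.0865, adjusted p = 1.70e-10). Slc6a20a shares 22 bases of exon with Ccr9, which reached at most 0.854 CPM, and reads of its near copy Slc6a20b could have been split between the genes in counting, so the level of Slc6a20a is uncertain to that extent. Slc6a20b averaged 1.34 to 2.46 CPM in the 5 groups.

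The chains of the cystine and cationic amino acid exchanger, Slc3a1 and Slc7a9, had their highest means in M10 and were lower in each 90% pool than in the 10% pool of the same species model. Mutations in either gene cause cystinuria in humans. Slc3a1, the heavy chain, was at 319.5, 294 and 286 CPM in M90, 491, 494 and 450.4 CPM in M10, 220.2, 238 and 241 CPM in H90 and 337, 322 and 303 CPM in H10, against 269, 289.5 and 268 CPM in Vehicle. Slc7a9, the light chain that forms the pore, was at 109, 120.1 and 113 CPM in M90, 149, 154 and 135 CPM in M10, 96.3, 102 and 109 CPM in H90 and 129.9, 127 and 138 CPM in H10, against 102, 100.1 and 105 CPM in Vehicle. Every M10 library of Slc3a1 lay above every other library, while for Slc7a9 the M10 and H10 libraries overlapped, as did those of M90, H90 and Vehicle with their neighbours in order. M90 against M10 gave log2 changes of -0.68 (SE 0.0515, adjusted p = 1.92e-13) for Slc3a1 and -0.36 (SE 0.0601, adjusted p = 5.46e-06) for Slc7a9. H90 against H10 gave -0.46 (SE 0.0522, adjusted p = 4.07e-09) for Slc3a1 and -0.37 (SE 0.0612, adjusted p = 7.57e-06) for Slc7a9. The share effect on Slc7a9 differed between the species models by 0.0035 (95% interval -0.17 to 0.18), and that on Slc3a1 by -0.22 (SE 0.0731, adjusted p = 0.0414), a call lost without any 1 of 9 libraries (Vehicle a, H10 b, H10 c, H90 b, H90 c, M10 a, M10 b, M90 b or M90 c, adjusted p of 0.0537 to 0.163). That call was also lost with upper-quartile scaling (adjusted p = 0.0854), with library size as the only scaling (0.0560) and with the set term (-0.13, adjusted p = 0.375).

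Against Vehicle, Slc3a1 rose in M10 (0.80, SE 0.0516, adjusted p = 2.82e-16) and H10 (0.22, SE 0.0517, adjusted p = 0.000539) and fell in H90 (-0.24, SE 0.0522, adjusted p = 0.000612). The H10 call was lost with library size as the only scaling (adjusted p = 0.139). In M90, Slc3a1 was 0.12 (SE 0.0516, adjusted p = 0.0460), with ranges that overlapped. That call was lost without Vehicle a, Vehicle c, H90 b, M10 a, M90 a or M90 b (adjusted p of 0.0504 to 0.293), with upper-quartile scaling (0.219) and with limma-voom (0.0524). The set term gave -0.00053 and library size scaling -0.030. Slc7a9 rose in M10 (0.52, SE 0.0603, adjusted p = 1.63e-09) and H10 (0.36, SE 0.0605, adjusted p = 3.68e-06). Its change in M90 was 0.16 (SE 0.0606, adjusted p = 0.0293), a call lost without Vehicle a, Vehicle b or M90 b (adjusted p of 0.0594 to 0.173), with upper-quartile scaling (0.121), with library size as the only scaling (0.953) and with the set term (0.882), and in H90 it was -0.00068 (95% interval -0.13 to 0.12). Slc3a1 shares 601 bases, or 26.5%, of its exons with Prepl on the opposite strand, and without a stated strand setting reads there cannot be told apart. Prepl itself was at 43.3 to 45.7 CPM in M90, 32.8 to 37.8 in M10, 38.4 to 42.2 in H90 and 37.3 to 43.7 in H10, against 34.9 to 38.7 in Vehicle.

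Transcripts of the light chain Slc7a9 were scarcer than those of its heavy chain in every library, and most so in M10. The ratio of Slc7a9 to Slc3a1, in CPM per kb, was 0.288, 0.347 and 0.334 in M90, 0.257, 0.264 and 0.255 in M10, 0.371, 0.363 and 0.383 in H90 and 0.327, 0.334 and 0.386 in H10, against 0.321, 0.293 and 0.332 in Vehicle. The M10 ratios lay below those of all other libraries. The heavy chain of the basolateral exchangers, Slc3a2, rose in every bile acid group. It averaged 201 ± 4.85 CPM in M90, 331 ± 25.8 in M10, 159 ± 23.4 in H90 and 262 ± 12.7 in H10, against 118 ± 1.93 in Vehicle (SD, n = 3 each). Its log2 changes against Vehicle were 0.77 (SE 0.0736, adjusted p = 2.75e-09) in M90, 1.49 (SE 0.0738, adjusted p = 4.34e-15) in M10, 0.43 (SE 0.0744, adjusted p = 0.000119) in H90 and 1.16 (SE 0.0737, adjusted p = 1.73e-12) in H10. The ratio of Slc7a7 to Slc3a2 was 0.643, 0.635 and 0.647 in M90, 0.556, 0.561 and 0.664 in M10, 0.779, 0.649 and 0.634 in H90 and 0.543, 0.447 and 0.474 in H10, against 0.949, 0.943 and 0.945 in Vehicle. All 12 bile acid libraries lay below the Vehicle ratios. That of Slc7a8 to Slc3a2 averaged 0.281 ± 0.0448 in M90, 0.206 ± 0.0370 in M10, 0.211 ± 0.0357 in H90 and 0.122 ± 0.00809 in H10, against 0.245 ± 0.0219 in Vehicle (SD, n = 3 each), with the H10 ratios below those of every other library. The ratios were not tested.

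**Figure D3:**
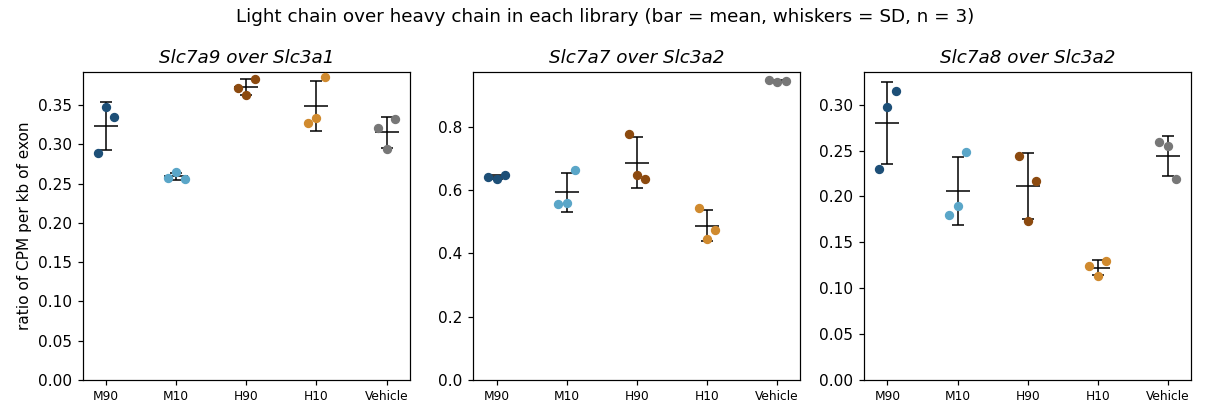
Ratio of light chain to heavy chain, in CPM per kb of exon, in each library of M90, M10, H90, H10 and Vehicle (points; bar = mean, whiskers = SD, n = 3). Slc7a9 over Slc3a1 is lowest in M10, Slc7a7 over Slc3a2 is lower in every bile acid library than in Vehicle, and Slc7a8 over Slc3a2 is lowest in H10.

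Slc7a7 and Slc7a8, light chains of the basolateral exchangers that lie 304428 bases apart on chromosome 14, both had their highest mean in M10. Slc7a7, which exchanges cationic for neutral amino acids and is mutated in lysinuric protein intolerance in humans, was at 124, 119 and 119.6 CPM in M90, 177, 186 and 189 CPM in M10, 98.6, 98.3 and 108 CPM in H90 and 126, 111 and 122 CPM in H10, against 103, 103 and 106 CPM in Vehicle. Its M10 libraries lay above all others, and H90 overlapped Vehicle. Slc7a7 rose in M10 (0.82, SE 0.0571, adjusted p = 2.58e-15), in M90 (0.21, SE 0.0574, adjusted p = 0.00193) and in H10 (0.20, SE 0.0575, adjusted p = 0.00408), and in H90 the change was -0.041 (95% interval -0.16 to 0.077). The calls in M90 and H10 were lost with library size as the only scaling (adjusted p = 0.369 and 0.338), and that in M90 also with the set term (0.298). The 90% share lowered it in both species models, with changes of -0.60 (SE 0.0567, adjusted p = 3.93e-11) for M90 against M10 and -0.24 (SE 0.0582, adjusted p = 0.00110) for H90 against H10, and the effects differed by -0.36 (SE 0.0812, adjusted p = 0.00145). Slc7a7 shares 232 bases, or 7.0%, of its exons with Oxa1l, which was at 79.0 to 88.4 CPM in M10, against 108 to 111 CPM in Vehicle.

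Slc7a8, an exchanger of neutral amino acids, was raised in the mouse-like pools. It was at 67.2, 83.9 and 87.8 CPM in M90, 86.3, 94.6 and 107 CPM in M10, 46.6, 39.6 and 55.9 CPM in H90 and 43.6, 42.6 and 49.99 CPM in H10, against 42.6, 42.2 and 37.2 CPM in Vehicle. The mouse-like groups overlapped each other and lay above the rest, and H90 and H10 overlapped each other. Against Vehicle it rose in M90 (0.97, SE 0.114, adjusted p = 2.69e-07) and M10 (1.23, SE 0.114, adjusted p = 3.69e-09), while the changes of 0.21 in H90 (95% interval -0.037 to 0.45) and 0.16 in H10 (95% interval -0.082 to 0.40) did not pass. Both calls in the mouse-like pools were kept with the set term. The direct comparison of species models gave 0.76 (SE 0.115, adjusted p = 1.52e-05) for M90 against H90 and 1.07 (SE 0.113, adjusted p = 1.39e-07) for M10 against H10. M90 against M10 gave -0.26 (SE 0.110, adjusted p = 0.0603), which passed without H90 b, H90 c, M10 a or M90 c (adjusted p of 0.0253 to 0.0283). It also passed with no filter (0.00315), with DESeq2 (0.0412), with limma-voom (0.0406) and with M90 and M10 fitted alone (0.0408).

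Slc1a1, the high-affinity carrier of glutamate and aspartate, ran against most of the other carriers. It was at 106, 105 and 105 CPM in M90, 55.2, 61.7 and 62.7 CPM in M10, 112, 108 and 104 CPM in H90 and 91.6, 91.9 and 91.7 CPM in H10, against 102, 88.6 and 92.5 CPM in Vehicle. The 3 M10 libraries were the lowest of the 15. Slc1a1 fell in M10 against Vehicle (-0.66, SE 0.0648, adjusted p = 2.77e-11) and against H10 (-0.62, SE 0.0650, adjusted p = 8.74e-10). It was higher in each 90% pool than in its 10% pool, by 0.82 (SE 0.0647, adjusted p = 5.08e-13) for M90 against M10 and 0.23 (SE 0.0641, adjusted p = 0.00358) for H90 against H10, and the effect was larger in the mouse-like pools by 0.58 (SE 0.0909, adjusted p = 1.24e-05). The small changes against Vehicle of 0.16 (SE 0.0634, adjusted p = 0.0334) in M90 and 0.19 (SE 0.0639, adjusted p = 0.0259) in H90 passed, but the first was lost without Vehicle b, Vehicle c or any M90 library (adjusted p of 0.0620 to 0.196) and the second without Vehicle b, Vehicle c, H90 a or H90 b (0.0655 to 0.174). With library size as the only scaling neither passed (0.931 in M90 and 0.0798 in H90), and M90 did not pass with upper-quartile scaling (0.138). With the set term neither passed (0.121 in M90 and 0.0878 in H90). In H10 the change was -0.041 (95% interval -0.17 to 0.089), which passed as lower only with library size as the only scaling (adjusted p = 0.0254). The transcript 4430402I18Rik overlaps 2631 bases, or 31.9%, of the exons of Slc1a1 and held 6 to 76 counts per library.

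Slc15a1, the proton-driven carrier of small peptides, rose most of the 9 tested carriers in M10 and fell in H90. It was at 108, 125 and 104 CPM in M90, 242, 245 and 232 CPM in M10, 45.6, 58.3 and 62.0 CPM in H90 and 88.5, 83.2 and 80.0 CPM in H10, against 71.7, 71.1 and 74.7 CPM in Vehicle. No neighbouring groups overlapped in the order M10, M90, H10, Vehicle and H90. The log2 change against Vehicle was 1.73 (SE 0.0785, adjusted p = 2.57e-18) in M10 and -0.40 (SE 0.0819, adjusted p = 0.000434) in H90, and both calls were kept with the set term and without any 1 library. In M90 it was 0.63 (SE 0.0784, adjusted p = 4.72e-08), which the set term reduced to 0.24 (adjusted p = 0.139). In H10 it was 0.21 (SE 0.0792, adjusted p = 0.0288), a call lost without Vehicle a, Vehicle b, H10 a or H10 b (adjusted p of 0.0597 to 0.128). It was 0.15 with upper-quartile scaling (adjusted p = 0.113) and 0.080 with library size as the only scaling (adjusted p = 0.422). M90 was below M10, with a change of -1.09 (SE 0.0765, adjusted p = 6.01e-13), and H90 below H10, with a change of -0.61 (SE 0.0818, adjusted p = 3.94e-07). The fall was larger in the mouse-like pools, a difference of -0.48 (SE 0.112, adjusted p = 0.00301), which the set term brought to an adjusted p of 0.246. M10 exceeded H10 by 1.52 (SE 0.0780, adjusted p = 1.05e-15) and M90 exceeded H90 by 1.04 (SE 0.0811, adjusted p = 8.57e-12).

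Slc36a1, a proton-driven carrier of small neutral amino acids found on lysosomes and at the brush border, rose in all 4 bile acid groups. It was at 53.6, 68.7 and 61.0 CPM in M90, 59.0, 57.1 and 69.9 CPM in M10, 50.5, 46.8 and 57.8 CPM in H90 and 68.5, 74.4 and 71.6 CPM in H10, against 40.0, 41.7 and 42.7 CPM in Vehicle. All 12 bile acid libraries lay above the 3 Vehicle libraries, and neighbouring bile acid groups overlapped. The changes against Vehicle were 0.56 (SE 0.0880, adjusted p = 1.35e-06) in M90, 0.58 (SE 0.0879, adjusted p = 4.72e-07) in M10, 0.31 (SE 0.0896, adjusted p = 0.0105) in H90 and 0.78 (SE 0.0878, adjusted p = 1.44e-09) in H10. The H90 call was lost without H90 c (adjusted p = 0.0846) and with the set term (0.186). H90 was below H10, with a change of -0.47 (SE 0.0880, adjusted p = 3.83e-05), whereas M90 against M10 gave -0.018 (95% interval -0.19 to 0.16). These effects differed by 0.46 (SE 0.123, adjusted p = 0.00902), a call lost without M90 b (adjusted p = 0.0571). M90 exceeded H90 by 0.25 (SE 0.0882, adjusted p = 0.0235), lost without H90 a, H90 b or M90 b (adjusted p of 0.0737 to 0.226), with upper-quartile scaling (0.0582), with library size as the only scaling (0.235) and with the set term (0.23, adjusted p = 0.0762). M10 against H10 gave -0.21 (SE 0.0860, adjusted p = 0.0562), which passed without H90 b, H90 c, M10 c or M90 a (adjusted p of 0.00793 to 0.0483). It also passed, at -0.34 (adjusted p = 0.00177), with library size as the only scaling, and with upper-quartile scaling (0.0106). With no filter, either limma-voom fit, M10 and H10 alone or the replicate block, its adjusted p was 0.0222 to 0.0385.

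Counted together, the 9 tested carriers were mostly higher than Vehicle in the mouse-like pools and in H10. In M90, 9 rose and 0 fell, beside 54.7% of all tested genes that changed (26.2% rose and 28.5% fell), with a median log2 change of 0.34 for the carriers and -0.022 for all genes. In M10, 8 rose and Slc1a1 fell, beside 64.5% of all genes (31.2% rose and 33.3% fell), with medians of 0.80 and -0.028. In H90, 3 rose (Slc6a20a, Slc1a1 and Slc36a1) and 2 fell (Slc3a1 and Slc15a1), beside 21.6% of all genes (11.7% rose and 9.86% fell), with medians of -0.00068 and -0.0089. In H10, 6 rose and 0 fell, beside 48.5% of all genes (24% rose and 24.5% fell), with medians of 0.21 and -0.0040. Slc6a20a and Slc36a1 were the 2 of 9 that rose in all 4 groups, and 0 of 9 fell in all 4, beside 9.39% and 6.9% of all genes, and the 4 comparisons share the Vehicle libraries. The M90 count was 3 with the set term (Slc6a20a, Slc7a8 and Slc36a1), 4 with library size as the only scaling and 6 without M90 b, and the H90 count was 3 with the set term. In H10, library size as the only scaling left 3 higher (Slc6a20a, Slc7a9 and Slc36a1) and 2 lower (Slc6a19 and Slc1a1). The summed level of 8 enterocyte markers (Alpi, Apoa1, Apoa4, Fabp2, Vil1, Krt20, Sis and Lct) was 18619 to 19535 CPM in M90, 27832 to 28985 in M10, 12337 to 13024 in H90 and 17828 to 18182 in H10, against 11321 to 13406 in Vehicle, with none at 0. H90 and Vehicle overlapped in that sum, of which Sis alone made up 6565 CPM in H90 and 7810 CPM in Vehicle, and the other 3 groups lay above Vehicle. Of the 8 markers, 6 rose in M90, 8 in M10, 5 in H90 and 8 in H10, and 1 fell in H90. Their part in the result was not tested.

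**Figure D4:**
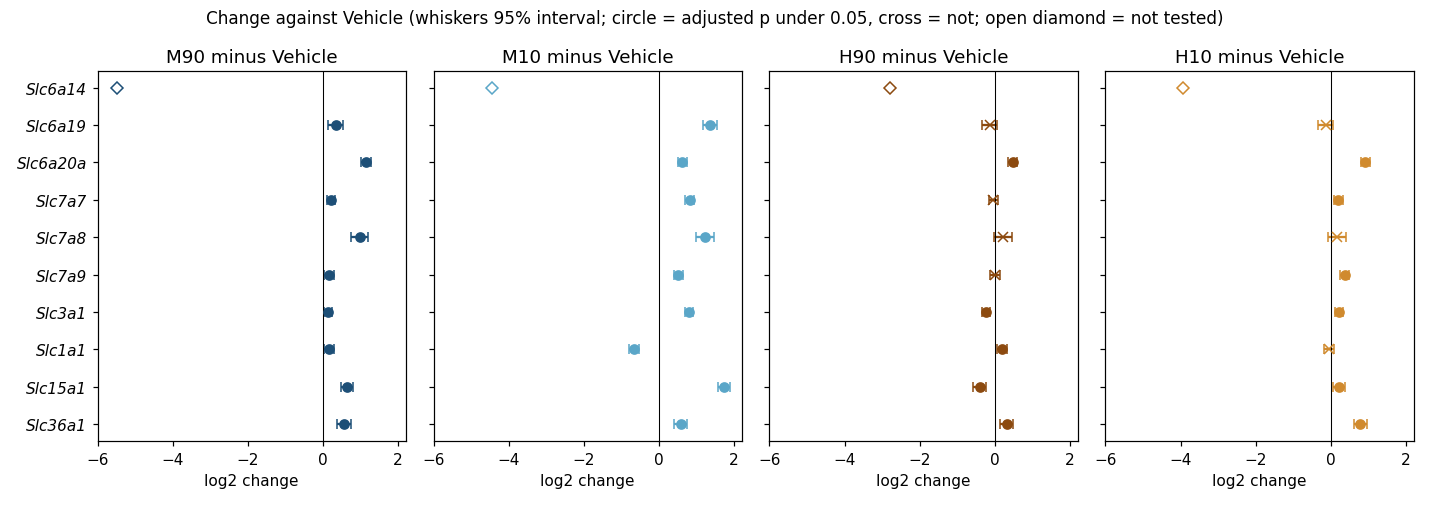
Log2 change of each carrier against Vehicle in M90, M10, H90 and H10 (points, whiskers 95% intervals; filled circles passed an adjusted p of 0.05, crosses did not; open diamonds show Slc6a14, which was not tested). Slc6a14 lies at -5.48 to -2.78, and of the other 9 only Slc1a1 in M10, Slc3a1 in H90 and Slc15a1 in H90 pass below 0.

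The share of 12α-hydroxylated bile acids moved the carriers in both species models. In M90 against M10, which lie within 1 library set, 2 of the 10 carriers were higher (Slc6a20a and Slc1a1) and 5 lower (Slc6a19, Slc7a7, Slc7a9, Slc3a1 and Slc15a1), beside 41.2% of all tested genes that changed (21.3% higher and 20% lower). In H90 against H10, 2 were higher (Slc6a14 and Slc1a1) and 6 lower (Slc6a20a, Slc7a7, Slc7a9, Slc3a1, Slc15a1 and Slc36a1), beside 36.6% of all genes (18.2% higher and 18.4% lower). These comparisons have no library in common, and H90 b and c lie in another library set than H10. Slc7a7, Slc7a9, Slc3a1 and Slc15a1, 4 of 10, were lower in both, beside 11.9% of all genes, and Slc1a1 was higher in both, beside 10.9%. Slc6a20a moved in opposite ways, beside 1.48% of all genes. The difference of the effects itself passed for 8 of 10, with 3 higher and 5 lower in the mouse-like pools, beside 14.8% of all genes (7.85% higher and 6.92% lower). That count was 5 with the set term and 5 without M90 b. The enterocyte markers were lower in both comparisons (7 of 8 passed in M90 against M10, and 8 of 8 in H90 against H10, with 0 higher in each), and their part in the result was not tested.

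**Figure D5:**
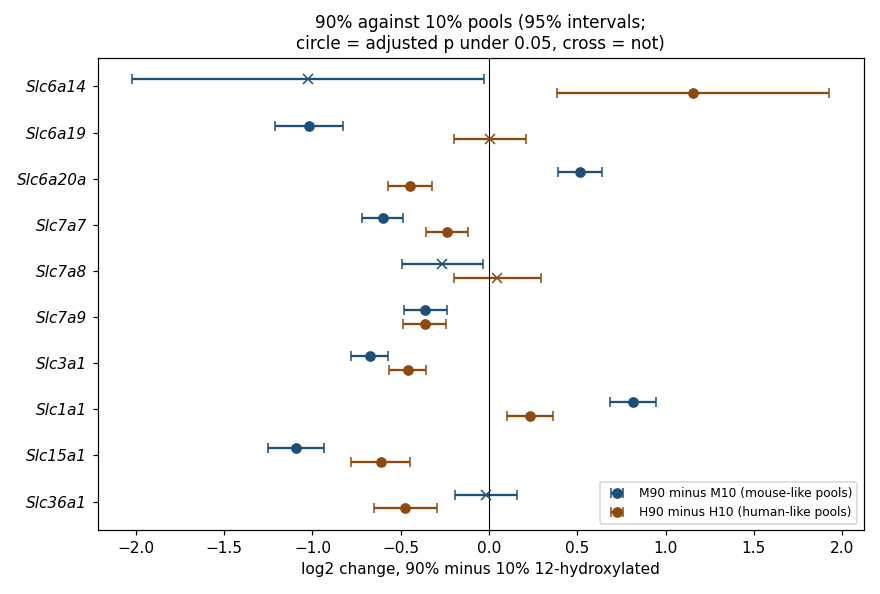
Log2 change of each carrier for M90 minus M10 (mouse-like pools) and H90 minus H10 (human-like pools), with 95% intervals; circles passed an adjusted p of 0.05 and crosses did not. Slc7a7, Slc7a9, Slc3a1 and Slc15a1 lie below 0 in both, Slc1a1 above 0 in both, and Slc6a20a on opposite sides.

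Set against each other at the same share, most carriers were higher in the mouse-like pools. These comparisons ran across library sets, wholly so for M10 against H10. In M90 against H90, 8 of 10 were higher and Slc6a14 was lower, beside 38.8% of all genes that changed (19.2% higher and 19.5% lower). The remaining carrier, Slc1a1, gave -0.035 (95% interval -0.16 to 0.095). In M10 against H10, 6 were higher (Slc6a19, Slc7a7, Slc7a8, Slc7a9, Slc3a1 and Slc15a1) and 2 lower (Slc6a20a and Slc1a1), beside 36.3% of all genes (18.2% higher and 18.1% lower). The largest of these were 1.52 (SE 0.0780, adjusted p = 1.05e-15) for Slc15a1 and 1.49 (SE 0.0962, adjusted p = 3.56e-15) for Slc6a19. The Slc7a9 calls were small, 0.16 (SE 0.0613, adjusted p = 0.0409) for M90 against H90 and 0.15 (SE 0.0599, adjusted p = 0.0435) for M10 against H10, with overlapping ranges. The first was lost without H90 a, H90 b, M90 b or M90 c (adjusted p of 0.0634 to 0.209), the second without Vehicle a, H10 a, H10 b, M10 a or M10 b (0.0550 to 0.206). Both were lost with the set term, which gave 0.11 (adjusted p = 0.211) and 0.024 (adjusted p = 0.913), with upper-quartile scaling (adjusted p = 0.122 and 0.300) and with library size as the only scaling (0.610 and 0.828). The first was also lost with M90 and H90 alone (0.0647) and the second with no filter (0.0638). Slc6a20a was the carrier whose order turned, above H90 in M90 (0.67, SE 0.0615, adjusted p = 2.86e-11) and below H10 in M10 (-0.29, SE 0.0608, adjusted p = 0.000175).

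Other carriers of amino acids and peptides changed in both directions. Of 41 listed, 30 were tested. Against Vehicle, 8 rose and 11 fell in M90, beside 26.2% and 28.5% of all genes, and 13 rose and 5 fell in M10, beside 31.2% and 33.3%. In H90, 5 rose and 2 fell, beside 11.7% and 9.86%, and in H10 12 rose and 5 fell, beside 24% and 24.5%. M90 against M10 gave 0 higher and 13 lower, beside 21.3% and 20%, and H90 against H10 gave 1 higher and 11 lower, beside 18.2% and 18.4%. With library size as the only scaling, 7 rose and 12 fell in M90, beside 2432 and 5180 of all 13159 genes. In M10, 10 rose and 9 fell in that setting, beside 2618 and 6256. The median log2 change of the list turned from 0.039 to -0.11 in M90 and from 0.19 to -0.077 in M10. H90 then gave 5 higher and 2 lower, and H10 gave 11 and 5. Slc7a11, the light chain of the cystine and glutamate exchanger, rose with log2 changes of 1.91 in M90, 2.86 in M10, 1.39 in H90 and 2.69 in H10. Its libraries were at 15.4, 15.3 and 18.9 CPM in M90, 29.9, 34.9 and 31.5 CPM in M10, 9.83, 13.4 and 11.5 CPM in H90 and 25.6, 33.8 and 25.99 CPM in H10, against 4.602, 4.41 and 4.26 CPM in Vehicle. Slc6a6, the taurine carrier, rose by 0.92 in M90, 1.15 in M10, 0.44 in H90 and 0.81 in H10. Slc16a10, a carrier of aromatic amino acids, fell in M90 (-0.40, SE 0.0901, adjusted p = 0.000306), H90 (-0.68, SE 0.0923, adjusted p = 3.94e-07) and H10 (-0.88, SE 0.0922, adjusted p = 2.74e-10), and in M10 its change was -0.11 (adjusted p = 0.282).

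Partners and suppliers of the carriers, 17 genes that hold brush border and cytosolic peptidases and the scaffold proteins that bind carriers, were mostly raised in M90, M10 and H10. Against Vehicle, 14 rose and 1 fell in M90, beside 26.2% and 28.5% of all genes, and 15 rose and 0 fell in M10, beside 31.2% and 33.3%. In H90, 6 rose and 2 fell, beside 11.7% and 9.86%, and in H10 13 rose and 1 fell, beside 24% and 24.5%. M90 against M10 gave 2 higher and 11 lower, beside 21.3% and 20%, and H90 against H10 gave 0 higher and 14 lower, beside 18.2% and 18.4%. With library size as the only scaling, 14 rose and 1 fell in M90 against Vehicle, and 14 rose and 1 fell in M10. In that setting 6 rose and 2 fell in H90, and 12 rose and 2 fell in H10. M90 against M10 then gave 3 higher and 8 lower, and H90 against H10 gave 0 higher and 13 lower. Ggt1, which splits glutathione and other gamma-glutamyl peptides at the cell surface, rose by 2.01 in M90, 1.83 in M10, 1.05 in H90 and 1.19 in H10 on the log2 scale. Naaladl1, an ileal peptidase, rose by 1.37 in M90, 1.49 in M10, 0.66 in H90 and 0.96 in H10. Pdzk1, a brush border scaffold protein, rose by 1.64 in M90, 1.81 in M10, 0.51 in H90 and 1.37 in H10. Slc9a3r1, another such scaffold, rose by 0.66 in M90, 1.32 in M10 and 0.69 in H10, and in H90 its change was 0.0045 (adjusted p = 0.959). The gene that fell in M90, H90 and H10 was Enpep, the aminopeptidase A of the brush border, with log2 changes of -0.27 (SE 0.0408, adjusted p = 5.71e-07) in M90, -0.38 (SE 0.0409, adjusted p = 3.59e-09) in H90 and -0.13 (SE 0.0407, adjusted p = 0.00683) in H10. In H90, Anpep fell with it.

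Scaled to library size alone, the median log2 change of all genes was -0.17 in M90, -0.29 in M10, -0.046 in H90 and -0.13 in H10 against Vehicle, 0.15 for M90 against M10, 0.10 for H90 against H10, -0.13 for M90 against H90 and -0.15 for M10 against H10. Of the genes called against Vehicle, those higher then made up 31.9% in M90, 29.5% in M10, 42.5% in H90 and 33.3% in H10, beside 47.9%, 48.4%, 54.3% and 49.5% with TMM scaling, which sets the median near 0. Between pools they made up 69.7% for M90 against M10, 66.9% for H90 against H10, 30.1% for M90 against H90 and 25.1% for M10 against H10, beside 51.6%, 49.8%, 49.6% and 50.1% with TMM scaling. The changes given here are relative to that median.

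The genes whose levels ran most like those of a carrier over the 15 libraries were found by the root mean square difference of log2 CPM, each gene centred on its own mean. For Slc6a14 they were Timp3, Fancd2, Nrarp, Mcm6 and Lipg, at a difference of 0.930 to 0.982, beside a spread of Slc6a14 about its own mean of 1.90. The match was thus loose, and the best of them, Timp3 (a metalloproteinase inhibitor), averaged 2.28 CPM in M90, 1.20 in M10, 9.01 in H90 and 3.11 in H10, against 19.5 in Vehicle. For Slc15a1 the nearest was Anpep, the brush border aminopeptidase N, at 0.127 beside a spread of 0.734. Anpep averaged 1785 CPM in M90, 3528 in M10, 857 in H90 and 1223 in H10, against 1295 in Vehicle. The next was Apoa1 at 0.181. The nearest pairs of genes were Per1 and Ace for Slc6a19 (0.201 and 0.204), Hsd17b13 and Pex19 for Slc6a20a (0.0942 and 0.105), and Inpp5a and Krt18 for Slc7a7 (0.0618 and 0.0715). They were Xpnpep2 and Fgfr3 for Slc7a8 (0.178 and 0.204), Tmbim1 and Cttn for Slc7a9 (0.0625 and 0.0660), Stat3 and Pacsin2 for Slc3a1 (0.0788 and 0.0797), Mgst1 and Rps26 for Slc1a1 (0.0815 and 0.0943), and Shpk and Srxn1 for Slc36a1 (0.0883 and 0.106). The spread about the own mean was 0.571 for Slc6a19, 0.396 for Slc6a20a, 0.310 for Slc7a7 and 0.510 for Slc7a8. It was 0.212 for Slc7a9, 0.350 for Slc3a1, 0.312 for Slc1a1 and 0.288 for Slc36a1. A difference is to be read beside the spread of its own carrier. All points share libraries and depth, and the differences are a description.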

How the data were processed

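RNA of 15 libraries of primary mouse ileal organoids (5 groups of 3) was sequenced after poly-A selection and Illumina TruSeq preparation, with RNA integrity numbers above 8, per the labels' protocols. The deposited files hold raw counts of reads per gene symbol, made by the authors with no normalization. The submitters' processing notes name bcl2fastq 2.17, STAR 2.5.2b, featureCounts 1.5.0-p3 and the builds mm10 and GRCm38. Annotation, strand setting and the handling of multimapping reads were not given in the sources used here. Coordinates and exon lengths come from GENCODE vM21, and CPM per kb uses the union of exons.

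The filter filterByExpr left 13159 genes. TMM scaling and 1 edgeR model with a mean for each of the 5 groups (10 residual degrees of freedom) gave robust, two-sided quasi-likelihood F tests. An adjusted p under 0.05 (Benjamini-Hochberg over all tested genes of a comparison) is called a change. Levels are CPM of TMM-scaled totals, except the library values of Mup20, Col1a1 and Rn45s, which use plain totals. Totals ran from 11245807 to 28989526 counts. Intervals hold the spread between libraries (common dispersion 0.00776, biological coefficient of variation 0.0881). Software was edgeR 4.0.16, DESeq2 1.42.0 and limma 3.58.1 under R 4.3.3, with figures from matplotlib 3.10.9 under python 3.11.15. The code of the fit was checked on simulated counts with few changed genes and no library sets, so that check does not cover the effect of the sets or of many changed genes.

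The carriers and gene lists were chosen with earlier results of these data known, and so was the split into library sets (Mup20 above or below 10 CPM). Named were the 10 carriers, up to 4 genes of a list with the smallest adjusted p in a comparison, the partners Slc3a2 and Tmem27, and the genes most like each carrier (5 for Slc6a14, 2 for the others) among tested genes with a mean of at least 2 CPM, on log2 CPM with a prior count of 3. Marker lists were of enterocytes, epithelium, crypt and dividing cells, fibroblasts, immune cells, endothelium, liver and colon. A few genes of the lists are not reported here. Endothelial markers summed to 0.274 to 1.57 CPM over all libraries, liver markers (mostly Apob, which enterocytes also make) to 849 to 3132 CPM and colon markers to 170 to 383 CPM, all TMM-scaled. Among the liver markers, Alb averaged 41.3 CPM in M90, 42.1 in M10, 73.2 in H90 and 110 in H10, against 97.3 in Vehicle. Serpina1c and Ahsg, like Mup20, also had their lowest means in M90 and M10, while Ttr averaged 18.6 to 21.4 CPM in the 5 groups. Alternatives were scaling by RLE, upper quartile or library size, no filter or a stricter one, DESeq2, limma-voom with shared or group spreads, the groups of the comparison alone, a replicate block, the set term and leaving out each of the 15 libraries.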

Additional observations from a re-analysis of the deposited data

Results flagged for a closer look

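For 8 of the 10 carriers, the effect of the 90% share differed between the mouse-like and the human-like pools, beside 14.8% of all tested genes. Tested was the difference itself, the change of M90 against M10 minus that of H90 against H10. It was -2.18 for Slc6a14, -1.02 for Slc6a19, -0.36 for Slc7a7, -0.48 for Slc15a1 and -0.22 for Slc3a1 on the log2 scale. It was 0.96 for Slc6a20a, 0.58 for Slc1a1 and 0.46 for Slc36a1. With the set term, 5 of the 8 differences passed, and those of Slc6a14, Slc3a1 and Slc15a1 were lost. The call for Slc3a1 was also lost without any 1 of 9 libraries, that for Slc6a14 without M10 a or M90 b and that for Slc36a1 without M90 b. The calls for Slc6a19, Slc6a20a, Slc7a7 and Slc1a1 were kept under every alternative. All mouse-like libraries are of 1 set, all H10 and Vehicle libraries are of the other, and only H90 holds both. In M10 against H10, set and species model thus cannot be told apart except through the set term, which rests on H90. The same holds for set and bile acid pool in M10 and in M90 against Vehicle.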

How the results depend on the processing

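Of 86 tested changes of the carriers, 69 were called, and 50 of these were kept under every alternative, 56 without each library left out in turn and 51 under the 11 other alternatives. With the set term, the called carriers numbered 3 in H90 and 3 in M90 against Vehicle and 5 for the difference of the share effects, and the called genes 1069 in H90 and 3958 in M90 against Vehicle and 2025 in M10 against H10. Library size scaling left 4 carriers called in M90 against Vehicle. Leaving out 1 library gave 5 to 8 called carriers for the difference of the share effects and 6 to 9 in M90 against Vehicle. Changes near 0 turned sign under some settings, and the cause was not tested. These were Slc36a1 in M90 against M10 (0.095 by library size, 0.066 by upper quartile, -0.11 to 0.077 over left-out libraries), Slc3a1 in M90 against Vehicle (-0.00053 with the set term, -0.030 by library size), and Slc6a19 in H90 against H10 (-0.14 with the set term, -0.019 by either voom fit, -0.0017 with no filter, -0.098 to 0.078 over left-out libraries). Slc7a9 in H90 against Vehicle was 0.0085 by DESeq2, 0.0090 by RLE, 0.0040 with the stricter filter, 0.011 with the 2 groups alone and -0.045 to 0.041 over left-out libraries. Its difference of share effects was -0.00044 with the stricter filter and -0.044 to 0.049 over left-out libraries. Over left-out libraries Slc1a1 in H10 against Vehicle ran -0.088 to 0.018 and Slc7a8 in H90 against H10 -0.075 to 0.16. The labels do not say whether the letters a, b and c pair the libraries. Residuals of the same letter correlated at -0.0237 to 0.0829 (median 0.00499) and of other letters at -0.0579 to 0.05 (median -0.00305). For 11 of 15 libraries the best correlation was with the own letter, so the letters may pair the libraries weakly. The replicate block moved 2 calls, Slc7a8 in M90 against M10 (adjusted p = 0.0199, so 8 carriers called there against 7) and Slc36a1 in M10 against H10 (adjusted p = 0.0385, 9 against 8). Depth limits Slc6a14 most, with 3 to 64 reads per bile acid library.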
